A study of Rattus norvegicus with 3 samples.

Results

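The genes described here are 10 members of the Notch pathway, taken by symbol from the 29772 genes measured: the receptors Notch1, Notch2 and Notch3, the ligands Dll1, Dll3 and Jag1, and the transcription factors Hes1, Hes5, Hey1 and Hes6. The rule takes them by name and uses no measured value, though they were proposed with earlier results of these data known, and all 10 were detected. Wild-type rat embryos gave the cerebral cortex, which was freshly dissociated with papain, otherwise untreated, and profiled cell by cell with a droplet kit (10x Genomics 3′ chemistry, version 3.1). There were 3 libraries, labelled embryonic day 14, 16 and 18 (E14, E16 and E18), with 1 library each. Rat strain, sex and the number of embryos behind each library were not given in the sources used here. With 1 library per label no difference has a replicate check, so no test is given, and every interval is a 95% interval for counting error only.

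Kept were cells in which 1000 or more genes were detected and mitochondrial genes gave no more than 10% of UMIs (unique molecular identifiers, each counting an RNA molecule captured). After doublet removal 4286, 4977 and 5431 cells remained in the libraries labelled E14, E16 and E18, with medians of 10477 to 12264 UMIs per cell. Any pair of libraries shared 7 or 8 of the kept barcodes. Genes that mark the stage of the embryo went against the order of the labels. Radial glia labelled E16 had the highest level of Hmga2, a chromatin protein of early neural stem cells, at 225.5 CPM (counts per 1000000 UMIs of the class in that library), against 21.8 labelled E18 and 13.7 labelled E14. Aldoc, an enzyme that accumulates as radial glia mature, was at 17.1, 238 and 719 CPM in the same order. Embryonic globins made up 67.4%, 22% and 2.57% of globin UMIs in the libraries labelled E16, E18 and E14. The text therefore names libraries by their label and reads no direction as one of age.

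Clusters were built without any Notch pathway gene and named from fixed markers of 14 cell classes. Radial glia, stem cells that line the ventricle, numbered 332, 3037 and 1749 in the libraries labelled E14, E16 and E18. Intermediate progenitors, their Eomes-marked dividing daughters, numbered 530, 458 and 1183. Newborn excitatory neurons numbered 1031, 1 and 1673, and maturing excitatory neurons 2089, 0 and 530, so neither class has a value labelled E16. The postmitotic cells of that library lay mostly in an unnamed cluster of 649 of its cells led by Calb1, Calb2, Ebf1 and Lhx9. The 3 radial glia clusters led by the library labelled E16 held 3031 of its 3037 radial glia, but 7 of those labelled E14 and 119 of those labelled E18. Radial glia labelled E16 were thus almost wholly in other clusters than those labelled E14 and E18, of which 325 and 1630 lay in the same 3 clusters, while all 4 clusters of intermediate progenitors held cells of each library. Emx1, a transcription factor of the dorsal forebrain, was at 74.8, 157 and 138 CPM in radial glia of the libraries labelled E14, E16 and E18.

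In Notch signalling a ligand on the surface of a cell binds a Notch receptor on its neighbour, the receptor is cleaved, and its intracellular part joins the DNA-binding protein Rbpj to switch on target genes. In the developing cortex the best-known targets are the repressors Hes1 and Hes5, which hold proneural factors such as Neurog2 down and keep radial glia dividing. Proneural factors in turn induce Dll1, so that a cell on its way to a neuron presents ligand to the stem cells beside it. Dll3 is a divergent ligand that stays largely inside the cell, and Hes6 is a relative of Hes1 that opposes it and favours differentiation.

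The regions upstream of Hes1 and Hes5 are shown because these are the target genes whose RNA is followed below. Each run is the 250 bases before the transcription start from RefSeq on the GRCr8 build, on the gene's own strand, with the core letters of the Rbpj motif, TGGGAA or TTCCCA on the other strand, in capitals. Hes1 lies on the minus strand and its run covers chr11:84213046-84213295. Hes5 lies on the plus strand and its run covers chr5:170804327-170804576.
Hes1: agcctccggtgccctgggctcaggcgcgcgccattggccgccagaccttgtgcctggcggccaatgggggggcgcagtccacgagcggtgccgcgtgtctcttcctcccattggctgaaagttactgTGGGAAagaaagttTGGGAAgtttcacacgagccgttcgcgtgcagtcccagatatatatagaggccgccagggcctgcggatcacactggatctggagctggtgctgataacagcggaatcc
Hes5: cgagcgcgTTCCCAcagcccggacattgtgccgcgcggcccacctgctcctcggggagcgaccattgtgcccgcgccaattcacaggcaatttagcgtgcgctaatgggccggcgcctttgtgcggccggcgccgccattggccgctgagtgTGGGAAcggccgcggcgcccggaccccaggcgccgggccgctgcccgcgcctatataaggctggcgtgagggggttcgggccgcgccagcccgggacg
Hes1 held 2 matches, both on its own strand, beginning 123 and 109 bases before the start. Hes5 held 1 match on its own strand, 98 bases before the start, and 1 on the other strand at 242. Dll1 also held 2, and the other members with an entry, Notch1, Notch2, Notch3, Dll3, Jag1 and Hes6, held none in this window. Hey1 had no entry among the promoters, so its upstream region was not examined. Of 33469 rat promoters of this length, 22.1% held at least 1 match and 2.71% held 2 or more. A match of letters is a description and not a measured binding site.

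Along the excitatory lineage the members split by cell class in the same way in each library. The receptors and Hes1, Hes5 and Hey1 had their highest level in radial glia, and Dll1, Dll3 and Hes6 in intermediate progenitors or newborn neurons. Jag1 followed neither pattern throughout. Among radial glia, intermediate progenitors, newborn and maturing neurons, 7, 7 and 6 of the 10 members were highest in radial glia in the libraries labelled E14, E16 and E18, the second from radial glia and intermediate progenitors alone.

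**Figure D1:**
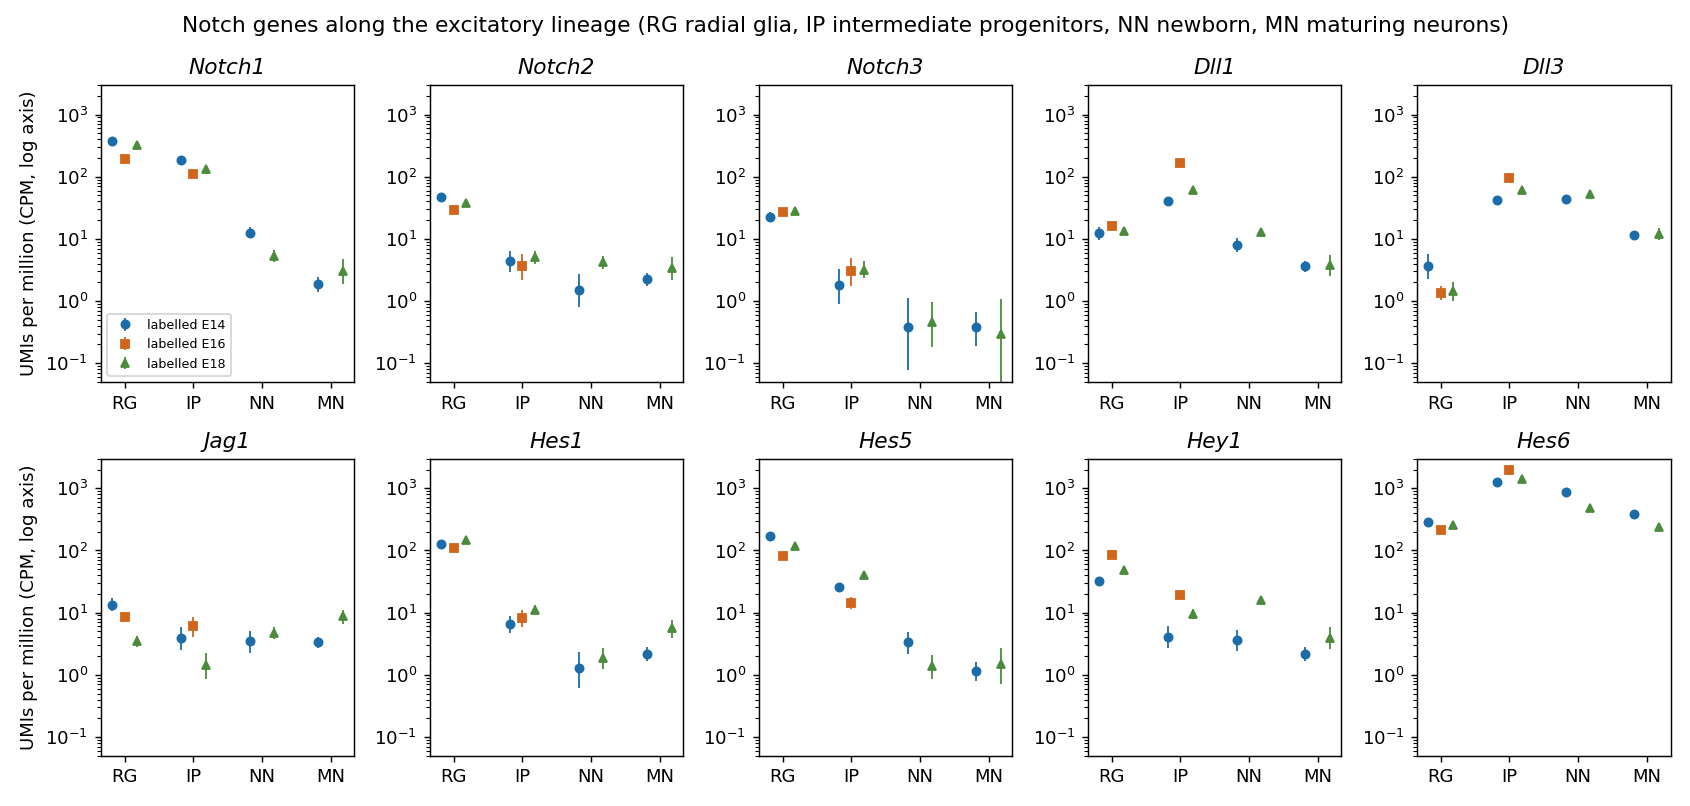
CPM (log axis) of each Notch gene in radial glia (RG), intermediate progenitors (IP), newborn (NN) and maturing (MN) excitatory neurons, 1 point per library as labelled, with bars for the exact 95% Poisson interval of the count. Notch1, Notch2, Notch3, Hes1, Hes5 and Hey1 are highest in radial glia, and Dll1 and Hes6 are highest in intermediate progenitors, in each library; newborn and maturing neurons labelled E16 were too few to plot.

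Notch1, the main receptor of cortical progenitors, stood in radial glia at 373 CPM (356 to 390) labelled E14, 196 (192 to 200) labelled E16 and 322 (315 to 330) labelled E18. In intermediate progenitors it was at 187, 109 and 133 CPM, with log2 ratios to radial glia of -0.99, -0.84 and -1.28. The level dropped much further in newborn neurons, to 12.6 CPM labelled E14 and 5.33 labelled E18, and in maturing neurons to 1.88 and 3.09. Radial glia held Notch2, a further receptor, at 47.8, 29.1 and 38.2 CPM (labels E14, E16 and E18). Its levels in intermediate progenitors were 4.42, 3.67 and 5.09 CPM, a log2 ratio of -3.43, -2.99 and -2.91 to radial glia. Notch3, best known from the mural cells of blood vessels, was at 22.6, 27.1 and 27.8 CPM in radial glia and at 1.80, 3.09 and 3.22 in intermediate progenitors. Intermediate progenitors thus kept Notch1 RNA while Notch2 and Notch3 RNA were between 7.51-fold and 12.6-fold lower than in radial glia.

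Dll1, the ligand induced by proneural factors, had a level in radial glia of 12.3 CPM (9.45 to 15.7) labelled E14, 16.3 (15.2 to 17.5) labelled E16 and 13.2 (11.8 to 14.7) labelled E18. In intermediate progenitors it was at 41.1 (36.2 to 46.5), 164.5 (154 to 176) and 62.2 (58.1 to 66.6) CPM. That is 3.34-fold, 10.1-fold and 4.73-fold above radial glia. The first of these ratios moved with doublet removal and clustering: its log2 value, 1.74, was 0.43 with doublets removed at 2 times the rate, 0.31 with none removed and -0.15 when libraries were clustered separately, and 6 of 11 alternatives kept it past 2-fold. In newborn neurons Dll1 was at 8.04 CPM labelled E14 and 12.8 labelled E18. The latter could not be told from radial glia of the same library, with a log2 ratio of -0.04 (-0.30 to 0.22). That ratio depends on the cells kept and the clustering: it ran from -0.57 with no doublets removed to 1.18, past 2-fold, with the stricter cell filter.

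Dll3 was low in radial glia, at 3.71 (2.23 to 5.79), 1.37 (1.05 to 1.75) and 1.45 (1.01 to 2.01) CPM in label order, from 19, 64 and 36 UMIs. In intermediate progenitors it stood at 41.6, 94.4 and 60.7 CPM, which is 11.2-fold, 69.1-fold and 41.9-fold above radial glia. The sizes rest on few radial glia UMIs and moved with the processing: the log2 ratios, 3.49, 6.11 and 5.39, fell to 1.87 labelled E14 when libraries were clustered separately, to 5.33 labelled E16 at the lowest and to 3.66 labelled E18 with no doublets removed. In newborn neurons, where Dll1 was lower than in intermediate progenitors, Dll3 was at 43.4 CPM (38.9 to 48.3) labelled E14 and 53.0 (49.4 to 56.8) labelled E18. The intervals of newborn neurons and intermediate progenitors overlapped in both libraries. In maturing neurons Dll3 was at 11.7 and 12.2 CPM. The unnamed neuronal cluster labelled E16 held 81.4 CPM of Dll3 (74.2 to 89.1) and 37.4 of Dll1 (32.6 to 42.8).

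Jag1, a ligand of the Jagged family, was the member with the least regular pattern. In radial glia it was at 13.5 CPM (10.5 to 17.0) labelled E14, 8.63 (7.81 to 9.51) labelled E16 and 3.46 (2.77 to 4.27) labelled E18. Intermediate progenitors held 3.93, 5.99 and 1.42 CPM, from 24, 31 and 19 UMIs. Maturing neurons held 3.38 CPM labelled E14 and 8.68 (6.61 to 11.2) labelled E18. Radial glia were therefore its highest class labelled E14, and maturing neurons its highest class labelled E18.

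Hes1 and Hes5, the classical targets, stood in radial glia at 125, 108 and 146 CPM (Hes1) and at 172, 81.2 and 118 CPM (Hes5) over the labels E14, E16 and E18. Hes1 had the lowest ratio of any member between the progenitor classes: intermediate progenitors held 6.55 (4.68 to 8.92), 8.11 (5.84 to 11) and 11.2 (9.49 to 13.2) CPM, which is 19.1-fold, 13.3-fold and 13-fold below radial glia. Over the alternatives these log2 ratios ran from -5.69 to -4.06, from -4.55 to -3.44 and from -4.52 to -3.39. By share of cells, given below, Hes1 in intermediate progenitors was not told from background. The part of background RNA in these folds was not tested. Hes5 in intermediate progenitors was at 25.7 (21.9 to 30.1), 14.5 (11.4 to 18.2) and 40.5 (37.2 to 44.1) CPM, or 6.70-fold, 5.61-fold and 2.91-fold below radial glia. Its log2 ratios ran from -3.69 to -2.70, from -2.92 to -2.15 and from -2.20 to -1.31. In newborn neurons Hes1 was at 1.28 and 1.84 CPM and Hes5 at 3.32 and 1.38 CPM in the libraries labelled E14 and E18. Hey1, a repressor of a related family, was at 32.8, 83.4 and 47.8 CPM in radial glia and at 4.10, 19.3 and 9.57 CPM in intermediate progenitors. In newborn neurons labelled E18 it was at 16.2 CPM (14.2 to 18.3), above the intermediate progenitors of that library, and at 3.57 (2.37 to 5.16) in those labelled E14.

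Hes6 had the reverse distribution. It was at 291 (276 to 306), 216 (212 to 220.3) and 259.7 (253 to 266) CPM in radial glia and at 1280.5, 1966 and 1435 CPM in intermediate progenitors, 4.41-fold, 9.10-fold and 5.52-fold higher. The first of these log2 ratios, 2.14, ran from 1.09 to 2.31 over the alternatives, the second from 3.03 to 3.44 and the third from 1.96 to 2.63. Newborn neurons held 888 CPM labelled E14 and 489 labelled E18. Maturing neurons held 384 and 243 CPM, within 1.32-fold of radial glia, and the direction of that last comparison turned with the clustering in both libraries. After its peak in intermediate progenitors Hes6 was lower in each later class in both libraries.

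Ratios between the progenitor classes were read against all genes with a mean of at least 5 CPM in the classes compared, and a gene at least 2-fold apart was counted as called, with no test. In the library labelled E14, 9 of the 10 members were called, against 14.6% of 9947 genes. For the library labelled E16 the count was 8 of 10, against 14% of 9580, and for that labelled E18 it was 9 of the 9 members that reached 5 CPM, against 12.9% of 9653. Dll1, Dll3 and Hes6 were called higher in intermediate progenitors in each library, 3 members each time, where 5.21%, 5.51% and 5.05% of all genes were called higher in label order. Called lower were 6, 5 and 6 members, where 9.37%, 8.51% and 7.9% of all genes were. Notch2, Notch3, Hes1, Hes5 and Hey1 were among them each time, with Jag1 labelled E14 and Notch1 labelled E18. Each of these ratios stayed past 2-fold in every alternative that gave a value, except that of Dll1 labelled E14. Notch1 labelled E14, not called at a log2 ratio of -0.99, was past 2-fold in 7 of 11 alternatives. Over the members tested the median log2 ratio was -2.26, -1.48 and -1.54 in label order, and over all genes tested -0.10, -0.09 and -0.11.

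**Figure D2:**
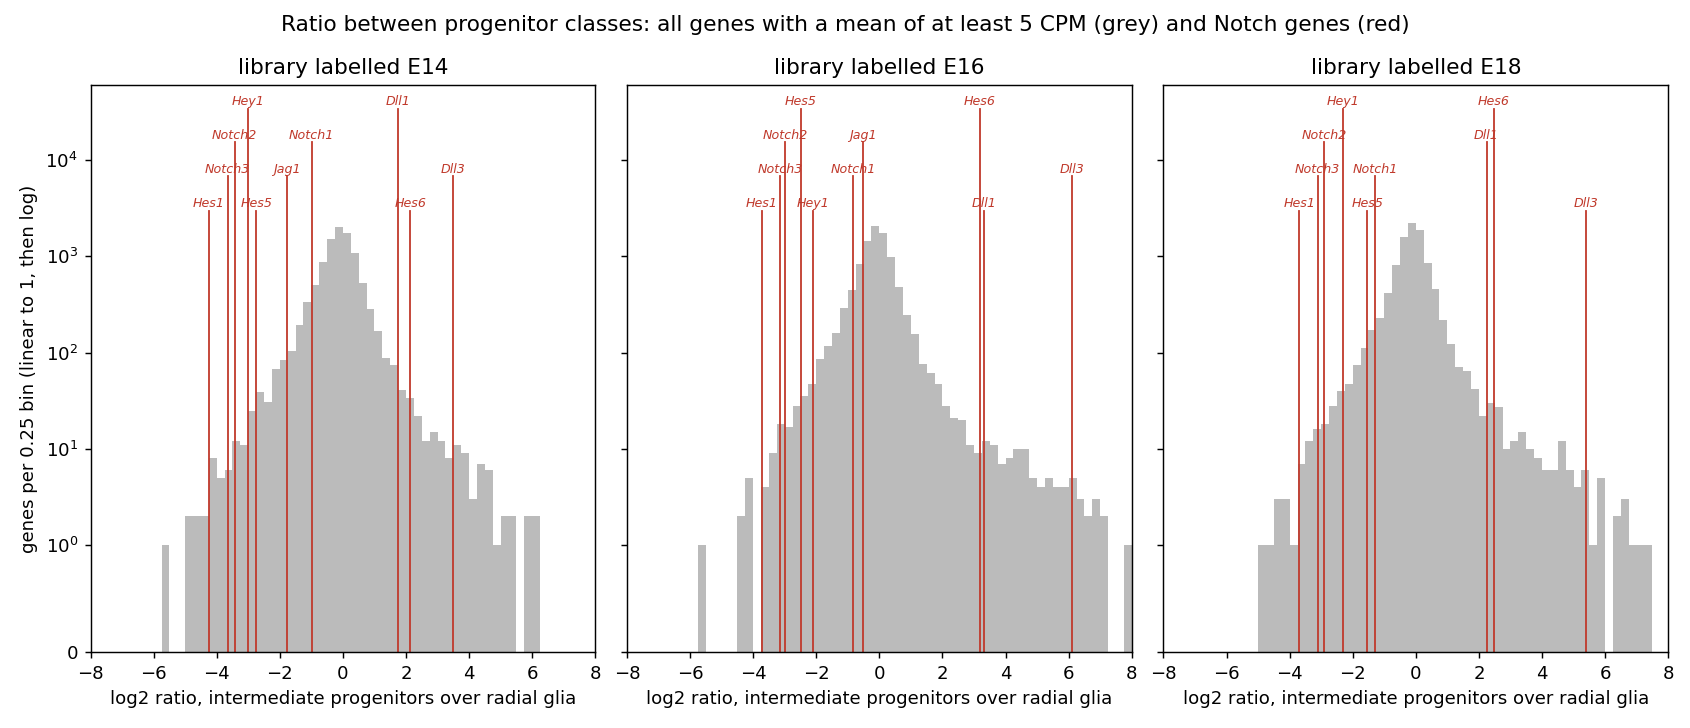
Histograms of the log2 ratio of CPM, intermediate progenitors over radial glia, for all genes with a mean of at least 5 CPM (grey, 0.25-wide bins, counts on an axis that is linear to 1 and then logarithmic) in the library labelled E14, E16 and E18, with a red line at each Notch gene. Dll3 lies at 3.49, 6.11 and 5.39 and Hes1 at -4.26, -3.73 and -3.70, near the 2 ends of the distribution, while Notch1 lies between -0.84 and -1.28.

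Against radial glia, newborn neurons had 9 of 10 members called labelled E14 and 7 of 9 labelled E18, where 33.1% and 31.5% of all genes were called. For maturing neurons the counts were 9 of 10 in each of these libraries, against 38% and 39.2% of all genes. Dll3 was the only member called higher than in radial glia in newborn and maturing neurons of both libraries. When libraries were clustered separately, its log2 ratio in maturing neurons labelled E14, 1.66, was -0.02.

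Between libraries, radial glia were compared in 3 pairs, which share their libraries. From E14 to E16 as labelled, Hey1 was higher, at 32.8 against 83.4 CPM (log2 ratio 1.35, 1.12 to 1.58). Hes5 was lower, at 172 against 81.2 CPM (-1.09, -1.19 to -0.98). These 2 of 9 members were called, beside 11% of all genes, and the median log2 ratio was -0.43 over the members and -0.13 over all genes. The call of Hey1 held in 10 of 10 alternatives and that of Hes5 in 7 of 10. Notch1 fell just short of the 2-fold line, at -0.93 (-1 to -0.85). Between E16 and E18 as labelled, 1 of 9 members was called beside 3.1% of all genes, and between E14 and E18 again 1 of 9 beside 5.23%. Both were Jag1, lower in the library labelled E18 by 2.49-fold and 3.89-fold. The log2 ratios of Jag1 were -1.32 (-1.67 to -0.98) and -1.96 (-2.43 to -1.48), past 2-fold in each of 10 and 11 alternatives, and they rest on 86 UMIs labelled E18. Both counts of called members moved with the processing, as listed in the last section.

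Hes1 and Hes5 differed from each other in 2 of the 3 pairs of libraries. From E14 to E16 as labelled, the log2 ratio in radial glia was -0.22 (-0.33 to -0.09) for Hes1 and -1.09 for Hes5, and the sign for Hes1 turned with no doublets removed (0.17) and when libraries were clustered separately (0.08). From E14 to E18 it was 0.22 (0.10 to 0.34) for Hes1 and -0.55 (-0.66 to -0.44) for Hes5. From E16 to E18 both were higher by a like amount, 0.43 (0.37 to 0.49) for Hes1 and 0.54 (0.47 to 0.61) for Hes5. The ratio of Hey1 had the opposite sign to that of Hes5 in each pair. The library labelled E18 lay between the other two for 6 of the 9 members, namely Dll1, Hey1, Notch1, Notch2, Hes5 and Hes6, as it did for 55.9% of all genes in radial glia. Dll1 in radial glia is a doubtful case among these: its log2 ratio from E14 to E16, 0.41, turned negative in 5 of 10 alternatives, and that from E14 to E18, 0.10, kept its sign in 4 of 11 and ran from -1.76 to 0.60.

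**Figure D3:**
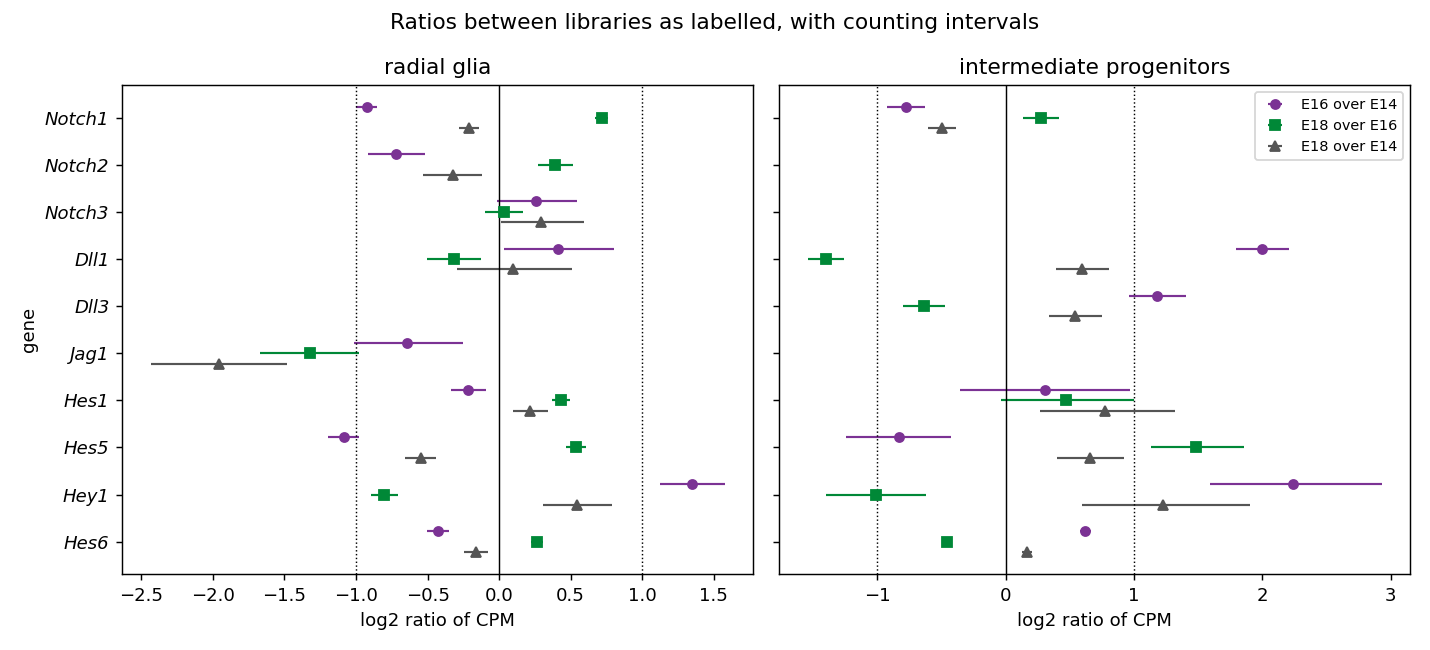
Log2 ratio of CPM between libraries as labelled in radial glia (left) and intermediate progenitors (right) for each Notch gene with a mean of at least 5 CPM, with bars for the exact 95% counting interval and dotted lines at 2-fold. In radial glia Hey1 and Hes5 lie on opposite sides of 0 in each pair; in intermediate progenitors Dll1, Dll3 and Hey1 are higher in the library labelled E16 than in the other 2.

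Markers of other classes in radial glia differed between libraries for some lists. The 6 markers of intermediate progenitors, all detected, summed in radial glia to 648 (E14), 224 (E16) and 459 (E18) CPM, and the 10 markers of maturing neurons to 454, 99.9 and 145 CPM. The 6 markers of newborn neurons summed to 59.3, 59.4 and 58.9 CPM. Of the low lists, the 6 markers of oligodendrocyte precursors summed to 23.2, 1.60 and 3.54 CPM, with 0, 0 and 2 at 0, and the 9 of choroid plexus to 3.71, 14.01 and 40.6, with 5, 3 and 2 at 0. The 10 radial glia markers summed to 10125, 4134 and 5831 CPM. Of the 3 members that are high in intermediate progenitors, Dll3 and Hes6 had their highest radial glia level in the library labelled E14, and Dll1 its lowest. The part of these other markers in the levels of the members was not tested. In bulk sums over a class, fewer cells with a gene and less RNA of it per cell cannot be told apart, and shares of cells are given below.

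Intermediate progenitors were compared in the same 3 pairs. From E14 to E16 as labelled, Dll1 was 4-fold higher (log2 ratio 2, 1.80 to 2.21), Dll3 2.27-fold higher (1.18, 0.96 to 1.41) and Hey1 4.71-fold higher (2.24, 1.59 to 2.93). These 3 of 7 members were called, beside 13.1% of all genes, with a median log2 ratio of 0.62 against -0.12. Each stayed past 2-fold in 11 of 11 alternatives. From E16 to E18, Dll1 was 2.64-fold lower, Hey1 2.02-fold lower and Hes5 2.80-fold higher, again 3 of 7, beside 4.29%. The log2 ratio of Hes5, 1.49, was 0.42 when libraries were clustered separately, and Hey1 stayed past 2-fold in 7 of 11 alternatives. Between E14 and E18 as labelled, Hey1 was 2.34-fold higher, 1 call among 7, beside 4.24%. This count depends on the processing: it was 3 or 4 in 6 alternatives, and Hes1 and Hes5 were each past 2-fold in 7 of 11. Neurog2, the proneural factor, did not follow Dll1: its log2 ratio from E14 to E16 in the same cells was -0.75 (-0.81 to -0.68). Dll1 was therefore highest relative to Neurog2 in the library labelled E16. For 5 of the 7 members the library labelled E18 lay in the middle, as for 55.7% of all genes. Other marker lists moved in these cells too: the 8 markers of Cajal-Retzius cells summed to 8.85, 121 and 17.2 CPM in label order, with 1, 1 and 0 of them at 0, and the 10 of radial glia to 4211, 2049 and 2559 CPM, with none at 0. The 6 markers of intermediate progenitors summed to 4296, 3870 and 4189.5 CPM. The 9 markers of choroid plexus summed to 0.492, 15.8 and 46.0 CPM, with 8, 3 and 2 at 0, and the 6 of oligodendrocyte precursors to 12.6, 1.74 and 1.12, with 3, 2 and 2 at 0. The part of these lists in the differences was not tested.

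In neurons a comparison was possible between the libraries labelled E14 and E18 alone, and the newborn neurons of the 2 libraries came from different clusters. Hey1 was 4.53-fold higher in newborn neurons labelled E18 (log2 ratio 2.18, 1.61 to 2.80). Notch1 was 2.37-fold lower (-1.24, -1.69 to -0.81). These were 2 of 5 members, beside 4.66% of all genes. Hey1 held in each of 11 alternatives, whereas Notch1 reversed to 0.82 when libraries were clustered separately and to 0.90 at a finer clustering. In newborn neurons the 9 markers of choroid plexus summed to 1.28 CPM labelled E14, with 8 at 0, and to 63.2 labelled E18, with 1 at 0. The 6 of intermediate progenitors summed to 2008 and 1343 CPM and the 10 of maturing neurons to 3420 and 4643, all detected, and the part of these lists was not tested. In maturing neurons Jag1 was 2.57-fold higher labelled E18 (1.36, 0.87 to 1.84), the only call among 3 members, beside 5.61% of all genes. It stayed past 2-fold in 9 of 11 alternatives, and lay opposite to Jag1 in radial glia between the same libraries. The 8 markers of Cajal-Retzius cells summed in maturing neurons to 13.8 and 111 CPM, with 1 and 3 at 0, and the 10 of the cortical hem to 46.0 and 131, with 2 and 4 at 0, and their part was not tested.

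Shares of cells with a UMI were compared at equal depth. Each cell was thinned to 2000 UMIs, which left out at most 19 cells of any class in a library. Erythroid cells, which should lack these genes, served as background from free RNA: of 134, 2.24% held a Hes6 UMI, 0.746% a Dll1 UMI and none a UMI of the other members, which allows up to 2.24% each (3 cells of the total). Of these cells 1, 124 and 9 came from the libraries labelled E14, E16 and E18, so the background is nearly that of the library labelled E16 alone. Before thinning they had a median of 32327 UMIs, against 12775 to 13951 in radial glia. Notch1 was seen in 50% (44.5 to 55.5), 31.2% (29.6 to 32.9) and 45.4% (43.0 to 47.7) of radial glia in label order. Hes1 was seen in 24.7%, 19.0% and 25.2%, and Hes5 in 28.4%, 15.1% and 18.8%. Dll1 was seen in 1.52% (0.497 to 3.52), 3.25% (2.64 to 3.94) and 1.90% (1.31 to 2.66) of radial glia. These shares lie above that of the erythroid cells but inside its interval (0.0189 to 4.09). Without thinning Dll1 was seen in 9.04% (6.18 to 12.6), 14.5% (13.2 to 15.8) and 10.8% (9.39 to 12.4) of radial glia, against 2.99% (0.819 to 7.47) of the deeper erythroid cells.

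Of intermediate progenitors, 7.2% (5.14 to 9.74), 21.4% (17.7 to 25.5) and 9.48% (7.87 to 11.3) held a Dll1 UMI at this depth, and 10.8% (8.28 to 13.8), 15.5% (12.2 to 19.1) and 10.8% (9.11 to 12.7) a Dll3 UMI. The intervals of the Dll3 shares labelled E14 and E16 overlapped, whereas without thinning they did not, at 34.0% (29.9 to 38.2) and 53.9% (49.2 to 58.6), with 39.1% labelled E18. Without thinning the Dll1 shares were 28.7%, 62.2% and 38.6%. Hes6 was seen in 90.0%, 91.4% and 88.7% of intermediate progenitors, and in no more than 34.7% of radial glia. The radial glia shares, 33.5%, 31.8% and 34.7%, are above the upper limit of the erythroid share (6.40%). In newborn neurons 80.3% and 60.3% held Hes6 in the libraries labelled E14 and E18, and in maturing neurons 51.7% and 39.1%. Hes1 was seen in 1.52%, 1.10% and 1.52% of intermediate progenitors, which is within the share that the erythroid cells allow. Without thinning Hes1 was seen in 5.28%, 6.33% and 9.55% of intermediate progenitors and in 5.97% (2.61 to 11.4) of the deeper erythroid cells. By share of cells Hes1 in intermediate progenitors was thus not told from background. In CPM the erythroid cells were lower, at 2.28 (1.09 to 4.20) against 6.55, 8.11 and 11.2, but they held more UMIs per cell.

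Within the intermediate progenitors the members varied between the 4 clusters. Cluster 15, the cluster with Dll1 among its 10 leading genes over the pooled libraries, held 98.3 CPM of Dll1, 255 of Notch1, 68.2 of Hes5 and 21.2 of Hes1. Cluster 16, led by the mitotic genes Ube2c, Hmmr and Cenpe, held 61.7, 52.8, 6.60 and 2.89 CPM of the same genes. Its Dll3 level was 91.4 CPM, against 45.0 in cluster 15. These values pool the 3 libraries, which fill the clusters unequally, with 82 of 508 cells labelled E16 in cluster 15 and 136 of 439 in cluster 16. Within each library the order was the same: Dll3 was at 39.1, 50.8 and 47.0 CPM in cluster 15 and at 56.0, 121.6 and 88.8 in cluster 16, in label order. Notch1 was at 274.5, 185 and 264 CPM in cluster 15 and at 110, 34.7 and 39.7 in cluster 16. Dll1 did not keep 1 order: cluster 15 was its highest labelled E14 (72.4 CPM) and E18 (96.6), but labelled E16 clusters 12 (291, 234 to 358) and 11 (175, 160 to 192) lay above or near cluster 15 (160, 133 to 190). The Notch pathway genes had no part in making these clusters. Among the 6 radial glia clusters, also pooled over libraries, Notch1 ran from 188 to 344 CPM, Hes1 from 98.2 to 152, Hes5 from 76.5 to 182 and Dll1 from 9.22 to 24.2.

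Radial glia in which a Dll1 UMI was captured were compared with the others at 2000 UMIs per cell. In the library labelled E16, 98 radial glia held a Dll1 UMI and 2920 did not. Neurog2 was at 393 CPM in the former and 111 in the latter (log2 ratio 1.83, 1.47 to 2.17) and Hes6 at 653 and 212 (1.62, 1.35 to 1.88). Eomes, which defines intermediate progenitors, was at 86.7 and 14.2 CPM (2.61, 1.76 to 3.37), and whether these cells lie at the border of the classes was not tested. For the targets and the receptor no difference was detectable: Hes5 was at 86.7 and 87.8 CPM (-0.02, -0.81 to 0.68), Hes1 at 117 and 111 (0.08, -0.59 to 0.68) and Notch1 at 194 and 196 (-0.02, -0.52 to 0.45). Each of these intervals lies inside 2-fold in either direction, and smaller differences were not detectable at this depth.

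The library labelled E18 had 33 radial glia with a Dll1 UMI and 1700 without. Neurog2 was at 530 and 128 CPM (log2 ratio 2.05, 1.51 to 2.55) and Hes6 at 606 and 246 (1.30, 0.81 to 1.76). Hes5 was at 152 and 119 CPM (0.34, -0.73 to 1.24) and Hes1 at 90.9 and 156 (-0.78, -2.23 to 0.35), from 10 and 6 UMIs in the cells with Dll1. In the library labelled E14 only 5 radial glia held a Dll1 UMI, and no comparison is made. A cell without a Dll1 UMI at this depth may still express the gene. In intermediate progenitors Hes6 was higher in cells with a Dll1 UMI by a log2 ratio of 0.50, 0.35 and 0.21 in label order, and the first of these was -0.40 when cells were thinned to 1000 UMIs. Notch1 was at 205 and 125 CPM in intermediate progenitors labelled E18 with and without Dll1 (0.72, 0.23 to 1.17). The same ratio was 0.25 (-0.56 to 0.97) labelled E14 and -0.09 (-0.90 to 0.66) labelled E16, where no difference was detectable.

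**Figure D4:**
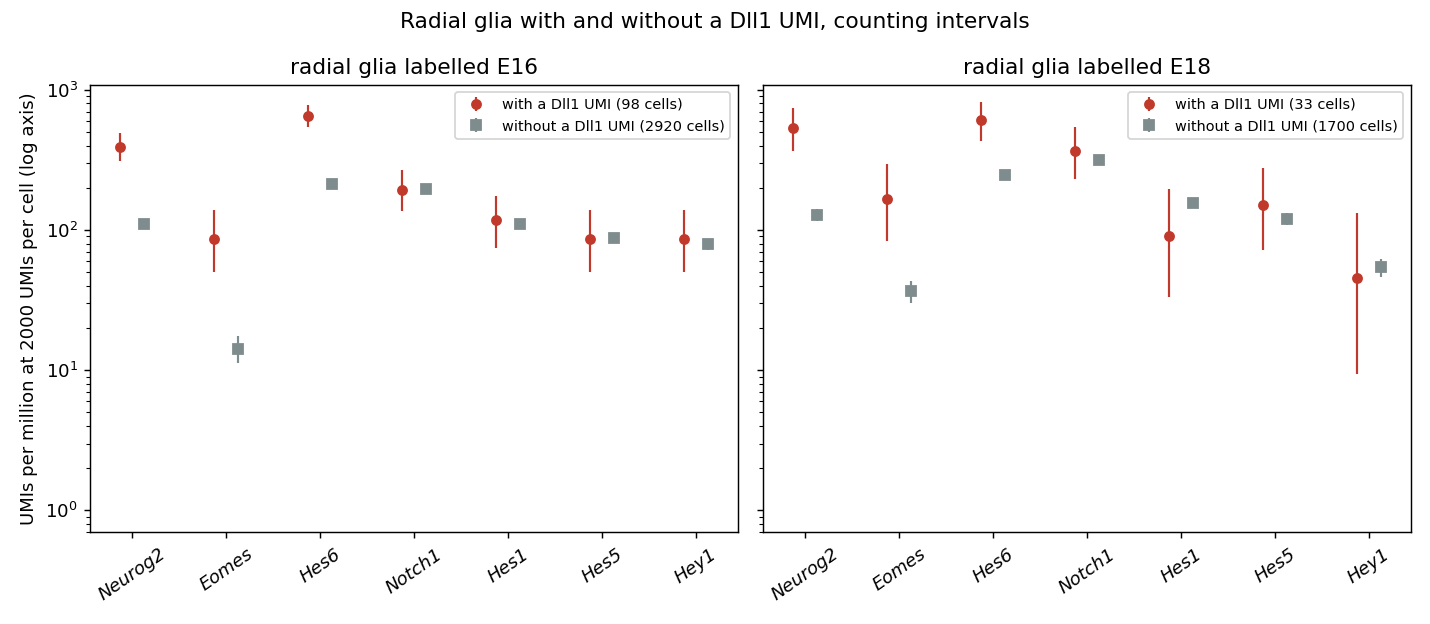
CPM (log axis) at 2000 UMIs per cell in radial glia with (red circles) and without (grey squares) a captured Dll1 UMI, in the libraries labelled E16 and E18, with bars for the exact 95% counting interval. Neurog2, Eomes and Hes6 are higher in cells with Dll1 in both libraries, while the intervals of Notch1, Hes1, Hes5 and Hey1 overlap.

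Cells were also split by 12 genes of the G2 and M phases of the cell cycle, as those with at least 3 UMIs of them against those with none. In radial glia labelled E16, 1795 cells fell in the first set and 565 in the second. Dll1 was at 14.2 CPM in the G2/M cells and at 32.7 in the others (log2 ratio -1.20, -1.84 to -0.55), and Hes6 at 181 and 342 (-0.92, -1.11 to -0.74). In the library labelled E18, Dll1 was at 6.77 and 14.6 CPM in radial glia (-1.11, -2.33 to 0.12), from 13 UMIs each, and Hes6 at 206 and 319.5 (-0.64, -0.86 to -0.41). The log2 ratio of Notch1 was 0.07 (-0.15 to 0.29) and 0.11 (-0.10 to 0.32) in these libraries. Radial glia labelled E14, with 193 G2/M cells and 73 others, did not show the lower levels: the log2 ratio was 0.18 (-0.41 to 0.81) for Hes6 and 0.40 (-0.10 to 0.92) for Notch1, and Dll1 had 4 and 1 UMIs. Notch2 in radial glia differed in direction, at -1.58 (-2.69 to -0.49), 0.74 (0.09 to 1.45) and 0.44 (-0.19 to 1.12) in label order. Hes5 labelled E16, at 0.50 (0.14 to 0.87), and Hes1 labelled E18, at 0.43 (0.13 to 0.75), were higher in G2/M cells. In the other libraries the intervals of Hes5 and Hes1 held 0. In intermediate progenitors labelled E18, Hes5 was at 23.6 CPM in G2/M cells and 67.5 in the others (-1.52, -2.27 to -0.82), Notch1 at 89.1 and 174 (-0.96, -1.35 to -0.58) and Hes6 at 1098 and 1791 (-0.71, -0.82 to -0.60). For Notch1 the log2 ratio was -0.72 (-1.27 to -0.20) labelled E14 and -0.30 (-1.07 to 0.53) labelled E16, and for Hes6 -0.39 and -0.30. Hes5 was too sparse in those libraries, with 4 and 11 UMIs labelled E14 and 7 and 0 labelled E16. Dll1 in intermediate progenitors differed in direction between libraries, with log2 ratios of -1.24 (-2.66 to -0.04), 0.30 (-0.41 to 1.08) and -0.60 (-1.20 to -0.01) in label order. The G2/M cells made up 29.0%, 65.1% and 41.3% of intermediate progenitors in label order, the same order as Dll1, Dll3 and Hey1 in that class, and 58.8%, 59.5% and 55.4% of radial glia. Dll1 was highest in the library labelled E16 in both sets of intermediate progenitors, at 22.9, 154 and 42.0 CPM in G2/M cells and at 53.9, 125 and 63.5 in the others. Dll3 was at 35.9, 91.5 and 47.1 CPM in the former and at 67.0, 81.2 and 71.4 in the latter, and Hey1 had at most 14 UMIs in any set.

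Of 51 other Notch pathway genes listed, 50 were in the files. In radial glia from E14 to E16 as labelled, 6 of the 36 that reached 5 CPM were at least 2-fold apart, beside 11% of all genes. Hey2, the close relative of Hey1, was at 1.95 CPM, from 10 UMIs, and at 8.27 CPM (log2 ratio 2.08, 1.19 to 3.15). The corepressor gene Tle4 was at 36.7 and 88.4 CPM. Maml3, a coactivator of the Notch complex, was at 20.3 and 46.8 CPM. Lower labelled E16 were Lfng, a glycosyltransferase that modifies Notch receptors, at 51.7 and 16.3 CPM, Aph1b, a subunit of the cleaving enzyme, at 25 and 9.55, and Numbl, a relative of the Notch inhibitor Numb, at 14.6 and 5.87. Hey1 and Hey2 were thus both higher, and Hes5 and Lfng both lower, labelled E16 than labelled E14, while Hes1 had a log2 ratio of -0.22. From E16 to E18 none of 36 was called, beside 3.1% of all genes, and from E14 to E18 none of 35, beside 5.23%.

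Between the progenitor classes 8 of 37, 9 of 35 and 9 of 34 of the other pathway genes were called in label order, where 14.6%, 14% and 12.9% of all genes were. Lfng, Dtx4 and Nrarp, the last a feedback inhibitor of the pathway, were lower in intermediate progenitors in each library. Dner, Mfng and Numbl were higher in each. The ligand Dll4 was called higher in intermediate progenitors in the library labelled E16 alone. Within intermediate progenitors it was also called higher labelled E16 than labelled E14 or E18. Nrarp was at 69.3, 50.5 and 70.7 CPM in radial glia and at 20.0, 7.53 and 9.20 in intermediate progenitors. Mfng, a glycosyltransferase like Lfng, was at 14.5, 24.4 and 20.3 CPM in radial glia and at 102, 147 and 115 in intermediate progenitors, whereas Lfng was at 51.7, 16.3 and 27.8 and at 3.28, 3.28 and 0.972. The related enzymes therefore lay in opposite classes. Rbpj itself was within 1.5-fold, at 124, 122 and 148 CPM in radial glia and 178, 170 and 207 in intermediate progenitors.

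Outside the excitatory lineage the ligands and targets combined differently. At the finer clustering, at resolution 2, a cluster of 67 cells of the 3 libraries with 2055 CPM of the endothelial gene Cldn5 held 273 CPM of Notch1, 97.5 of Jag1, 90.6 of Notch3, 76.7 of Hes1 and 67.8 of Hey1. Dll4, best known as a ligand of blood vessels and also found in intermediate progenitors labelled E16 (above), was at 42.9 CPM. Hes5 was at 1.38 CPM from 2 UMIs, and no Dll3 UMI was counted among 1446422, which allows up to 2.07 CPM (3 UMIs of the total). Notch3, Jag1 and Hes1 were thus found in this cluster with little or no Hes5. Whether mural cells were mixed into it, and so whether the same cells held these genes, was not tested. Meningeal fibroblasts labelled E16, 93 cells, held 58.5 CPM each of Jag1 and Notch2 and 62.4 of Hes1, with 3.95 of Hes5. An unnamed cluster led by Ttr, Otx2, Fgf17 and Rspo1, with 427 cells labelled E16, held 77.0 CPM of Notch2 (70.2 to 84.4), 99 of Notch1 and 98.3 of Hes1. Cajal-Retzius cells labelled E16, early-born neurons of the marginal zone, held 998 CPM of Hes6, 48.0 of Dll3 and 22.5 of Dll1, and those labelled E18 813, 29.6 and 9.11.

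Across 20 points, each a class in a library with at least 50 cells, the genes most like each member were found by Pearson's r of log2(CPM + 1) among 5992 genes. The points share libraries and a lineage, and r is a description. Dll3 was most like Myt1 (r = 0.97), a neuronal zinc finger gene, then Scrt2 and Srrm4. Dll1 was most like Gadd45g (0.90), itself a marker used in naming, then Zc3h12c and Cep76. Notch1 was most like Cdk1 (0.96), the mitotic kinase, then Smc4 and Hells. For Hes5 the list was Ednrb (0.93), Adgrv1 and Mrps12, for Hes1 Pdlim5 (0.95), Col2a1 and Col4a5, and for Hes6 Fam110a (0.93), Ccdc88c and Elavl4. Notch2 was most like F3 (0.97), Etl4 and Mdfic, and Notch3 like Tcf7l1 (0.94), Eef1d and Etl4. Jag1 and Hey1 had the weakest likeness, with Tex261 at 0.84, Ano6 and Col4a2, and with Dct at 0.82, Yap1 and Efhd2. Among the members, Hes1 and Notch2 were most alike (0.92) and Dll3 and Hes1 most opposed (-0.56).

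Some of these counts carry an uncertainty from gene models. In RefSeq on GRCr8 the spans of Dll1 and Fam120b, of Hes5 and Pank4, and of Hes6 and LOC134480412 overlap. How reads in such overlaps were assigned is not given in the sources used here.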

How the data were processed

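The deposited matrices hold raw counts of UMIs per gene and barcode for 3 libraries, made by the authors with Cell Ranger 6.0.1 on mRatBN7.2, per the submitters' processing notes. The labels' protocol also describes cultured cells, multiplexing and an antibody sort for human cells, and which of its steps apply to primary rat cells is not known. Of 7100, 6707 and 6937 barcodes labelled E14, E16 and E18 (62740631, 80974234 and 73727823 UMIs), 4444, 5193 and 5690 passed the cell filter. The highest Scrublet scores (Scanpy 1.11.5) were removed as doublets at 0.8% per 1000 cells, 158, 216 and 259 cells. The automatic threshold marked 2.54%, 0.0385% and 2.65%, and so had not worked in the second library.

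Cells, each scaled to 10000 UMIs and put on a log scale, were clustered on 2000 variable genes, without Notch pathway, mitochondrial, ribosomal, haemoglobin and sex-linked genes, with 30 principal components, 15 neighbours and the Leiden method (leidenalg 0.10.2, resolution 1), with no integration. A cluster took the class of highest mean marker fold over the mean of the libraries (10 CPM added). It needed at least 3 markers raised 1.2-fold and seen in 20% of cells, and its 10 leading genes (50 CPM or more) could not hold more markers of another class. A cluster led by Cldn5 that met the rule for microglia is not used as that class. A level is the summed UMIs of a gene over the total of the class in that library, with exact Poisson intervals. Ratios carry the transformed Clopper-Pearson interval, with a count of 0 set to 3. Called means at least 2-fold with a mean of at least 5 CPM. The calls were also run on simulated counts with known folds, drawn from a radial glia profile pooled over the libraries labelled E16 and E18. That run held counting error only. It had no variation between libraries, from clustering or from doublets, so it cannot speak to these. Python 3.11.15, numpy 2.4.6, scipy 1.17.1 and pandas 2.3.3 were used. Cells of a library are not replicates, and embryos or litters could not be told apart.

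Named are the 10 members, other pathway genes called in radial glia between libraries (up to 6 per direction) and the 3 genes most like each member. Genes called between the progenitor classes in each library, Rbpj, and Dll4 were named after their values were seen. Members, lists and tests were chosen with earlier results of these data known.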

Additional observations from a re-analysis of the deposited data

Results flagged for a closer look

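Jag1 differed between cell classes in its direction from the library labelled E14 to that labelled E18. Its log2 ratio was 1.36 in maturing excitatory neurons (3.38 against 8.68 CPM) and -1.96 in radial glia (13.5 against 3.46 CPM). The counting intervals, 0.87 to 1.84 and -2.43 to -1.48, lie on opposite sides of 0. With 1 library per label the difference between the classes was not tested. The 2 libraries filled different clusters of maturing neurons, and the ratio there was 0.83 with the stricter cell filter, short of 2-fold.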

How the results depend on the processing

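Alternatives were run on the cell filter, doublets, clustering, the level measure, scaling, pseudocount, low-level filter and depth. No paired analysis was possible because each label has 1 library and no replicate number. The stricter cell filter left radial glia labelled E16 unnamed, so it gave no value there, and newborn neurons labelled E16 gave none in the main setting. The number of members highest in radial glia stayed within 1.5 times in each alternative.

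Counts of called members moved as follows. In radial glia, E18 over E16, 1 became 0 at a minimum of 20 CPM. For E18 over E14, 1 became 2 at resolution 2, 4 with each library clustered on its own, 0 at 20 CPM and 2 with no minimum. In intermediate progenitors, E18 over E14, 1 became 4 with the stricter filter, 3 with the looser filter, with no doublets removed, with 2 times as many removed and at resolutions 0.5 and 2, 2 with own clustering and with no minimum, and 0 at 20 CPM. In newborn neurons, E18 over E14, 2 became 1 with the looser filter, with more doublets removed and with own clustering, 0 at 20 CPM and 4 with no minimum.

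Of 150 log2 ratios between libraries or classes, 30 changed sign in some alternative. In 19 the main counting interval held 0. The other 11 were these. Dll1 in radial glia, E16 over E14, was -0.0415 with the looser filter, -0.29 with no doublets removed, -0.54 with more removed, -0.53 at resolution 2 and -0.93 with own clustering. Hes1 there was 0.17 with no doublets removed and 0.0831 with own clustering. In intermediate progenitors Hes5, E16 over E14, was 0.32 with the stricter filter, 0.0691 with no doublets removed and 0.60 with own clustering. Notch1, E18 over E16, was -0.0271 and -0.63 under the last 2 of these. In newborn neurons Notch1, E18 over E14, was 0.0933 and 0.90 at resolutions 0.5 and 2 and 0.82 with own clustering. In maturing neurons Hes1, E18 over E14, was -0.26 with the stricter filter. Against radial glia labelled E14, Dll1 was -0.15 in intermediate progenitors with own clustering and 0.23 in newborn neurons with the stricter filter. Dll3 in maturing neurons was -0.0202 with own clustering. Hes6 in maturing neurons over radial glia was -0.25 with no doublets removed, -0.20 with more removed, -0.15 at resolution 2 and -0.60 with own clustering labelled E14. Labelled E18 it was 0.0889 with the stricter filter, 0.0878 at resolution 2, 0.28 at resolution 0.5 and 0.23 with own clustering. Apart from these 11, Hes6 in intermediate progenitors labelled E14 with over without a Dll1 UMI was -0.40 at 1000 UMIs. The cause was not tested. Of all alternative values of ratios, 655 of 860 between libraries and 549 of 760 between classes stayed inside the main counting interval. For ratios of cells with over without a Dll1 UMI it was 143 of 180. Of shares of cells at other depths, 66 of 300 stayed inside. Depth limits members with few UMIs in a class, such as Dll3 in radial glia (19, 64 and 36 in label order).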
